A study of Mus musculus with 26 samples.

Results

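The genes described here are developmental transcription factor families: Hox, Pax, Sox, Fox, Tbx, Lhx, Msx, Dlx, Nkx, Gata, Pou, sine oculis (Six2 to Six5), Meis, Pbx and Tead factors, together with the Id and Hes regulators. Members were the probe sets of both array tables whose single annotated gene symbol begins with one of these family names and its number, with Gata4, Gata6 and Foxc2 left out. The rule found 120 genes of the 6137 named on the arrays. They were measured by 139 of 13179 probe sets, 75 on the A array and 64 on the B array. The rule used gene names and no measured value. It also took in Hoxa11os, an antisense RNA, and Pou2af1, a coactivator that carries a Pou symbol but is not a Pou-domain factor. No probe set is annotated as Nkx2-5, so its level was not analysed here.

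Whole hearts of mouse embryos at embryonic day 12.5 were profiled, 1 heart on an A and a B array. The mouse line carries a deletion of the NK2-specific domain, a conserved stretch outside the homeodomain of Nkx2.5, which is a transcription factor of the cardiac lineage. The 13 hearts, on 26 arrays, comprised hearts 1, 2, 7, 9 and N1 of wild-type embryos (n = 5), hearts 5, 6, 12 and N2 of heterozygotes (n = 4), and hearts 3, 4, 8 and N3 of null embryos (n = 4). No litter, sex or strain is recorded and nothing shows that the hearts were from separate litters, so the p-values measure only the spread between these hearts. Every value comes from RNA of the entire organ. Fewer cells of a type and less RNA per cell therefore cannot be told apart.

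These families act at successive levels of embryonic patterning. Hox proteins specify position along the body axis and bind DNA together with Pbx and Meis homeodomain cofactors, while Gata, Tbx and Nkx factors act together in heart formation. Id proteins lack a DNA-binding region and hold bHLH factors away from DNA, Hes proteins are repressors that commonly respond to Notch, and Tead proteins bind DNA for the Hippo pathway coactivators Yap and Taz. Sox and Fox factors serve in many lineages of the heart, among them the endocardium, the cushions and the neural crest.

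The signal is a linear, background-subtracted intensity that can be negative. A value counted as detected when it exceeded a floor of 2 times the noise, 887 on A and 1373 on B, the noise being the root mean square of the negative values of the table. Testing required a signal over the floor on 4 or more arrays and a minimum of 2 values per genotype. Many cells are blank: the A arrays of wild-type heart 1 and heterozygous hearts 6 and N2, and the B arrays of null heart 3 and wild-type hearts 9 and N1, lacked 62.5% to 81.3% of their values. As a result 10 of the 17 tested members had values from only 2 heterozygous hearts. All 14 cardiomyocyte marker probe sets were above the floor at every value, 7 of 7 neural probe sets were never above it, and of the liver and foregut sets 5 of 7 and 3 of 4 never were.

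Most of these transcription factors were not detected. Of the 139 probe sets 17 were tested, for 16 genes, which is 12.2% of the members against 42.6% of the other 7403 probe sets with a single symbol. The share was 14.7% on A, where 45.2% of all single-symbol probe sets were tested, and 9.38% on B, where 33.4% were. A total of 116 member probe sets stayed at or below the floor in every heart. All 122 that were not tested were low, and none was lost through blank cells alone. Array signal near the floor gives only an upper bound, so a gene that was not detected may still be expressed.

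The families differed in how many members rose above the floor. The Id family had 3 of 6 probe sets tested (Id1, Id2 and Id3), Tead had 2 of 4 (Tead2 and Tead3), Pbx and Meis together had 2 of 5 (Pbx3 and Meis1), and Hes had 2 of 6 (Hes1 and Hes6). Sox followed with 3 of 15 (Sox11 and a pair of Sox4 probe sets), Gata with 1 of 5 (Gata2) and Fox with 3 of 18 (Foxd3, Foxf1 and Foxo3). Of the 33 Hox probe sets only that of Hoxb5 was tested. None was tested among 15 Msx, Dlx and Nkx probe sets, 10 Pou, 8 Pax, 6 sine oculis, 4 Lhx and 4 Tbx probe sets.

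**Figure D1:**
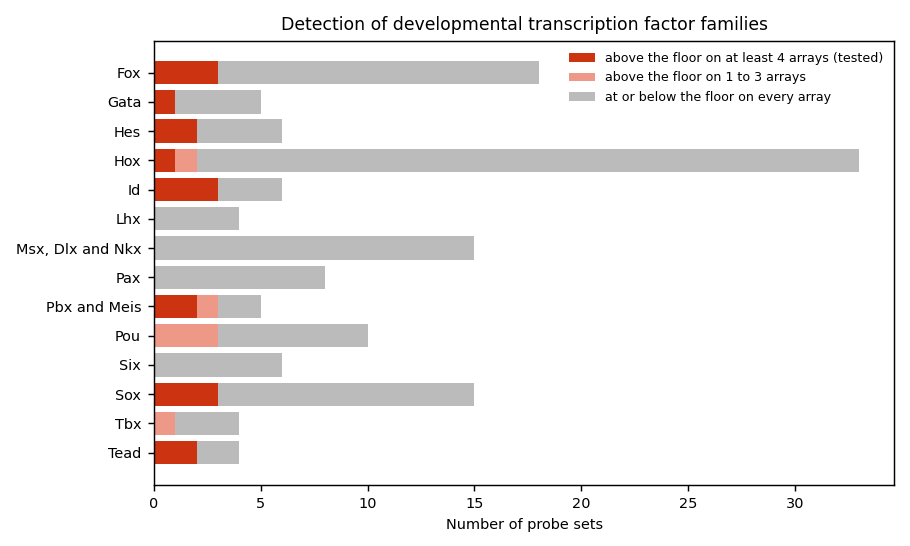
Number of member probe sets in each family (horizontal axis), split into those above the floor on at least 4 arrays, on 1 to 3 arrays, and on none. The Hox bar is the longest, with 1 tested probe set of 33, and the Id bar has 3 of 6.

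The 31 Hox probe sets that never passed the floor cover all 4 clusters, from Hoxb1 to Hoxa13, Hoxb13 and Hoxd13. The Pax genes Pax1, Pax2, Pax3, Pax5, Pax6, Pax8 and Pax9 were all below it, as were Six2, Six3, Six4 and Six5, and Lhx1, Lhx3, Lhx5 and Lhx8. Several genes with known roles in the heart were in this group too: Tbx3, a repressor in the conduction system, Nkx2-6, a pharyngeal and cardiac relative of Nkx2.5, Msx1 and Msx2 of the cushions, Gata5 of the endocardium, Sox17 and Sox18 of endothelium, Foxp1 of the myocardium, and Tead1. Hes5, Id4, Meis3, Foxj1 and Dlx1 to Dlx6 were also never above the floor. Of the 116, 25 probe sets were negative in every heart, among them those of Nkx2-6, Sox18, Tead1 and Tbx6, and 80 stayed below 1 times the noise. The highest, that of Pou6f1, reached 95.2% of its floor.

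Detection also depended on the probe set. Of 18 genes with several probe sets, 7 had a probe set that rose above the floor and another that never did (Gata2, Hes6, Hoxd12, Id1, Id2, Sox11 and Tbx2), and 10 had none that did. Sox4 alone passed with both. The Tbx2 probe set on B had 3 hearts above the floor, whereas the one on A was negative in all 9 hearts with a value. For Gata2 the tested probe set ranged from 995 to 1910.0 and its partner from the same accession stayed below the floor. A probe set under the floor is therefore no measure of the gene's absence.

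The number of hearts above the floor set the border of the tested group. Foxf1 lay just inside, with 4 of 10 values above the floor. Pbx2, Pou2f3, Pou5f1 and Tbx2 lay just outside, each with 3, and Hoxd12 and Pou3f2 had 1. Pou5f1, the pluripotency factor Oct4, was uneven among hearts. Its signal was 1832 in wild-type heart 7, 2299 in wild-type heart 9 and 1045 in null heart N3, against 536 in wild-type heart N1 and -424.5 to 47.2 in the other 5 hearts measured. Pou3f2, a neural Pou factor, was likewise highest in wild-type hearts 7 (1762) and 9 (1358), and ran from 251 to 1151 in the other 10. The groups overlapped for Pou3f2. For Pou5f1 the deposited signals of heterozygous hearts 5 and 12 (-424.5 and -87.4) lay below all wild-type hearts (lowest 47.2). That gap was below the floor, and the Pou5f1 values raised to the floor overlapped.

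Genotype differences were sought with limma over the 4494 tested probe sets of both tables, with Benjamini-Hochberg adjustment and a threshold of 0.05. No member passed between null and wild-type hearts (0 of 17, against a background of 0.0223% of all tested probe sets), between heterozygous and wild-type hearts (0 of 17, background 0%), or between null and heterozygous hearts (0 of 17, background 0%). At an unadjusted limma p under 0.05 there was again no member in any of the 3 comparisons, where 2.4%, 3.38% and 5.79% of all tested probe sets passed. Null and wild-type hearts overlapped for all 17 members, and 2.27% of all tested probe sets did not overlap. Heterozygous and wild-type hearts overlapped for all 17 as well (background 5.5%). Null and heterozygous hearts did not overlap for 2 members, Foxd3 and Pbx3 (background 7.7%), both measured in only 2 heterozygous hearts.

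Taken as a group the members were centred near 0. Their median log2 difference was -0.0097 between null and wild-type hearts, with 8 higher and 9 lower, and the median of all tested probe sets was -0.0063. Between heterozygous and wild-type hearts it was 0.060 (all probe sets -0.014), and between null and heterozygous hearts -0.078 (all probe sets 0.019). The precision limits what these hearts could show. The half-width of the 95% interval for null against wild type had a median of 0.46 on the log2 scale over the members and ran from 0.30 for Foxf1 to 0.71 for Foxd3. Differences smaller than this were not resolvable, and larger ones could also miss the threshold after adjustment over 4494 probe sets.

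**Figure D2:**
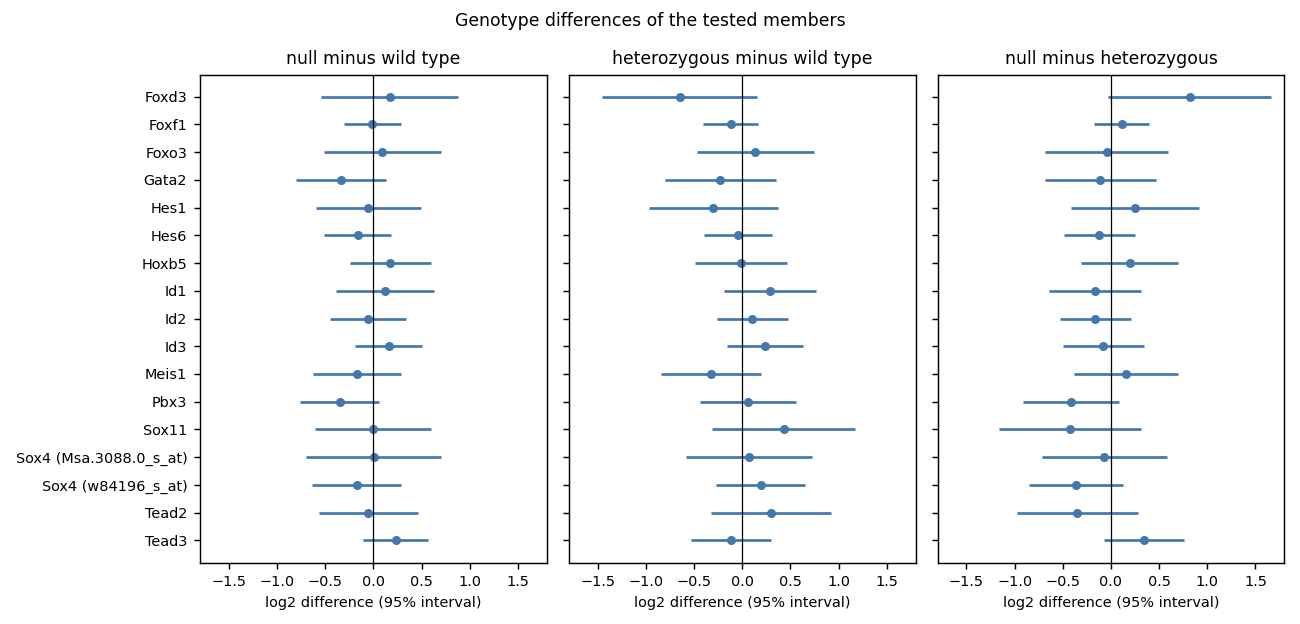
Log2 difference (horizontal axis, points) with its 95% interval (lines) for each tested member in the 3 genotype comparisons, from limma. Every interval includes 0, and Foxd3 has the widest.

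Sequence upstream of the detected genes was examined for the site of NK2 proteins, since the studied domain belongs to one of them. RefSeq start-site windows (assembly GRCm38.p6, 250 bases before to 50 after each start, 300 in all) were available for 11 of the 16 tested genes, in 15 windows. The letters TNAAGTG, a form of the NK2 homeodomain binding sequence, were searched on both strands and occurred in 11.5% of all 32851 windows. They were found in 2 of the 15 windows, those of Foxd3 and Meis1. The 30 bases around each match are shown, on the strand of the gene, with the match in capitals, because these were the only matches among the 11 genes searched. The Foxd3 match begins at base 16 after the start (chr4:99656303-99656332, plus strand) and the Meis1 match, which reads TNAAGTG on the opposite strand, begins at base 42 (chr11:19018920-19018949, minus strand).
Foxd3: aggaaggctggTGAAGTGagggggtgcggc
Meis1: cctctccgcctgtgcaacacaCACTTTAca
A match describes the letters of the window and no binding was measured.

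Among the homeodomain genes, Hoxb5, a factor of the anterior Hox group, was close to the floor. Its signal was 946, 810, 1134 and 642 in wild-type hearts 2, 7, 9 and N1. It was 782 and 1013 in heterozygous hearts 5 and 12, and 912, 1574 and 582 in null hearts 3, 4 and N3. The groups overlapped, and the highest value was that of null heart 4. The log2 difference between null and wild type was 0.18 ± 0.19 (SE, adjusted p = 0.9999 in limma), and without null heart 4 it turned to -0.093.

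Pbx3, a TALE-class homeodomain cofactor of Hox proteins, had the smallest p of all members between null and wild-type hearts. Wild-type hearts 2, 7, 9 and N1 gave 1934, 2340.1, 2897 and 2461, and heterozygous hearts 5 and 12 gave 2201 and 2805. Null hearts 3, 4, 8 and N3 gave 1706, 1922, 1964 and 1887. The null hearts lay close together at the low end of the wild-type range, and only wild-type heart 2 reached into them. The mean fell from 2408 ± 396.5 (SD, n = 4) in wild-type hearts to 1870 ± 114 (SD, n = 4) in null hearts, a log2 difference of -0.35 ± 0.19 (SE, 95% interval -0.76 to 0.05). The limma adjusted p was 0.9999 and the exact two-sided permutation p over hearts was 0.0571, where the smallest possible was 0.0286. Within hearts 1 to 6, 7 to 12 and N, each with only 1 heart of wild type, null or both, the difference was -0.095, -0.41 and -0.38. Against heterozygous hearts it was -0.41 ± 0.23 (SE, adjusted p = 0.8135 in limma).

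Meis1, a partner of Pbx and Hox proteins, gave 2071, 2886, 2428 and 3212 in wild-type hearts 2, 7, 9 and N1. The signal of heterozygous hearts 5 and 12 was 1961 and 2225, and null hearts 3, 4 and N3 gave 2297, 2160.4 and 2538. All groups overlapped, with the highest values in wild-type hearts. The log2 differences from wild type were -0.17 ± 0.21 (SE) in null and -0.32 ± 0.24 (SE) in heterozygous hearts, and neither passed. Pbx2 was above the floor only in wild-type hearts 7 (1096) and N1 (1189) and null heart 8 (1114).

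Gata4 and Gata6 were left out by the rule and not examined. Of Gata1, Gata2, Gata3 and Gata5 only Gata2, a factor of blood and endothelial precursors, was detected. Signals were 1199.8, 1849, 1910.0 and 1414 in wild-type hearts 2, 7, 9 and N1. They were 1256 and 1425 in heterozygous hearts 5 and 12, and 995, 1010.4, 1625 and 1449 in null hearts 3, 4, 8 and N3. The 2 lowest hearts were null, but the groups overlapped. The log2 difference between null and wild type was -0.33 ± 0.22 (SE, adjusted p = 0.9999 in limma, exact two-sided permutation p = 0.2286). Within hearts 1 to 6, 7 to 12 and N, each with only 1 heart of wild type, null or both, it was -0.26, -0.21 and 0.036. The second Gata2 probe set, never above the floor, gave -0.015 ± 0.15 (SE) between null and wild type with the floor at 1 times the noise. Endothelial markers were lower in null hearts for 7 of 8 tested probe sets, none called (median -0.22). The summed signal of the 3 without blanks was 17512 to 29764 in wild-type, 22071 to 34797 in heterozygous and 13036 to 31933 in null hearts. Cardiomyocyte markers were higher for 14 of 14 (median 0.28) and erythroid markers for 7 of 7 (median 0.45), none called. The erythroid probe set without blanks ran from 2117 to 227333 in wild-type, 5470.4 to 60077 in heterozygous and 42054 to 128569 in null hearts. The part of these lists in the Pbx3 and Gata2 values was not tested.

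The Sox genes with signal were Sox4 and Sox11, related factors of the SoxC group with roles in outflow tract formation. Sox11 gave 1006, 1781, 1989 and 1526 in wild-type hearts 2, 7, 9 and N1. The signal of heterozygous hearts 5 and 12 was 1674 and 2524, and null hearts 3, 4, 8 and N3 gave 2399.5, 1071, 1495 and 1415. The null and wild-type hearts overlapped, with null heart 3 above every wild-type heart, and their log2 difference was 0 ± 0.28 (SE, 95% interval -0.60 to 0.60). Heterozygous hearts differed from wild type by 0.43 ± 0.34 (SE, adjusted p = 0.9814 in limma).

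Sox4 was measured by a pair of probe sets on the B array. Probe set w84196_s_at gave 4278, 3573, 5125, 3987 and 5506 in wild-type hearts 1, 2, 7, 9 and N1. It gave 3636, 5374, 4739 and 7098 in heterozygous hearts 5, 6, 12 and N2, and 4031, 2809, 4401 and 4807 in null hearts 3, 4, 8 and N3. The groups overlapped, with the lowest heart null and the highest heterozygous, and the null minus heterozygous difference was -0.36 ± 0.23 (SE, adjusted p = 0.8386 in limma). The second probe set ranged from 3415 to 8252, with a null minus heterozygous difference of -0.068 ± 0.30 (SE). Between null and wild type the difference was -0.17 ± 0.22 by w84196_s_at and 0.0012 ± 0.32 by the second (SE). The probe sets ordered hearts differently: heterozygous heart N2 was the highest by w84196_s_at and the lowest, at 3415, by the second.

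The 3 detected Fox genes had differing patterns. Foxd3, a factor of neural crest and of pluripotent cells, had the largest spread of all tested members, an SD of 0.57 over hearts on the log2 scale. It gave 843, 2094, 2276 and 254 in wild-type hearts 2, 7, 9 and N1, 842 and 679 in heterozygous hearts 5 and 12, and 1413, 1833 and 1478 in null hearts 3, 4 and N3. Both heterozygous hearts were under the floor and all 3 null hearts above it, while the wild-type hearts fell on both sides. The log2 difference of null from heterozygous hearts was 0.82 ± 0.39 (SE, 95% interval -0.028 to 1.67, adjusted p = 0.7895 in limma). Its exact two-sided permutation p was 0.1, the smallest that 3 against 2 hearts can give. From wild type, null hearts differed by 0.17 ± 0.33 (SE) and heterozygous hearts by -0.65 ± 0.37 (SE). The null difference changed sign when wild-type heart 2 or N1 was left out (-0.048 in both cases). Within hearts 1 to 6 (1 wild-type heart) it was 0.86, and within the N hearts (1 wild-type and 1 null heart) 0.74. No null value was present among hearts 7 to 12, where both wild-type hearts were high. With heart-number set (1 to 6, 7 to 12 or N) as a block the null difference was 0.58 from wild type and 1.29 from heterozygous hearts, still not called. At 1 times the noise it was 0.44 from wild type, and at 3 times the noise 0.23 from heterozygous hearts.

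Foxf1, a mesenchymal factor that responds to hedgehog signals, gave 862, 869 and 1839 in wild-type hearts 1, 2 and 7. Heterozygous hearts 5, 6, 12 and N2 gave 1132, 1042, 981 and 1453, and null hearts 4, 8 and N3 gave 773, 1683 and 1470.2. One or more hearts of each genotype were above the floor, and the groups overlapped. The null minus wild-type difference was -0.0097 ± 0.14 (SE) and had the narrowest interval among the members, with 6 of its 10 values at or below the floor. Foxo3, a forkhead factor restrained by insulin and Akt signalling, had a mean of 2058 ± 667 (SD, n = 5) in wild-type, 2251 ± 834 (SD, n = 4) in heterozygous and 2217 ± 767 (SD, n = 4) in null hearts. Its genotype differences lay between -0.044 and 0.13.

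Hes1 and Hes6 stand for the bHLH repressors of the Hes family, Hes1 being a direct Notch target and Hes6 an antagonist of Hes1. Hes1 gave 1136, 1313, 975 and 1604 in wild-type hearts 2, 7, 9 and N1, 323 and 1134 in heterozygous hearts 5 and 12, and 672, 864, 1242 and 2062 in null hearts 3, 4, 8 and N3. All wild-type hearts were above the floor, while 1 heterozygous and 2 null hearts were not. The null and heterozygous differences from wild type were -0.053 ± 0.25 and -0.30 ± 0.31 (SE). The heterozygous value was -0.80 with the floor at 1 times the noise and -0.069 with heart-number set as a block. Without wild-type heart N1 it was -0.18, and it was not called in any of these. Hes6 varied less. It gave 1806, 2202, 2207, 2109 and 2224 in wild-type hearts 1, 2, 7, 9 and N1, 1816, 2259.9, 1956 and 2160.4 in heterozygous hearts 5, 6, 12 and N2, and 1666, 1748, 1809 and 2364 in null hearts 3, 4, 8 and N3. Of the null hearts 3 lay below 4 of the 5 wild-type hearts and N3 above all 5, and the log2 difference was -0.16 ± 0.17 (SE, adjusted p = 0.9999 in limma).

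The Notch pathway above the Hes genes showed no genotype call either. Of 5 tested genes (7 probe sets), 2 probe sets were higher and 5 lower in null than in wild-type hearts, with 0 called in any genotype comparison (median -0.082). The smallest p-values between null and wild type belonged to Adam10, a Notch protease (0.23 ± 0.18, SE), and Notch2 (-0.42 ± 0.45, SE).

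The tested probe sets of Id1, Id2 and Id3 were above the floor in every heart with a value. Id1 gave 4385, 5289 and 5199 in wild-type hearts 1, 2 and 7, 4979, 5714.5, 9050.0 and 5116 in heterozygous hearts 5, 6, 12 and N2, and 4649, 5486 and 6070.0 in null hearts 4, 8 and N3. Heterozygous heart 12 stood above all others, and the remaining hearts overlapped. Its null and heterozygous differences from wild type were 0.12 ± 0.24 and 0.29 ± 0.22 (SE), and the latter was 0.091 without heterozygous heart 12 and 0.14 with median-ratio scaling. Id3 gave 7269, 5801, 6000.5 and 6209.5 in wild-type hearts 2, 7, 9 and N1, 8168 and 6727 in heterozygous hearts 5 and 12, and 5973, 8324 and 6967 in null hearts 3, 4 and N3. The differences of Id3 were 0.16 ± 0.16 and 0.24 ± 0.18 (SE), and the groups overlapped. Id2 ranged from 7568 to 11220 over all hearts and differed by -0.055 ± 0.18 (SE) between null and wild type. In the heterozygous comparison all 3 Id genes were above wild type by these probe sets, without passing the test. The second Id1 probe set, never above the floor, went the other way with the floor at 1 times the noise. It gave -0.38 ± 0.23 in heterozygous and -0.32 ± 0.21 in null hearts from wild type (SE), neither called.

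Id proteins bind bHLH factors and their genes respond to BMP signals, so both lists were examined beside them. Of 9 tested probe sets of bHLH partners, 2 were higher and 7 lower in null than in wild-type hearts (median -0.17, 0 called). The smallest p-values were those of Hand2, a bHLH factor of the right ventricle and outflow tract (0.62 ± 0.29, SE, adjusted p = 0.9999 in limma), and Tal1 (-0.46 ± 0.32, SE). Of 7 probe sets of the BMP and TGF-beta pathway 1 was higher and 6 lower (median -0.052, 0 called), with Smad2 at -0.33 ± 0.16 and Bmp7 at 0.31 ± 0.30 (SE). Of the 30 probe sets on this list 18 were never above the floor, among them those of Bmp2, Bmpr1a and Bmpr2.

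Tead2 and Tead3 were the detected members of the Tead family. Tead2 gave 4634, 4262, 2730 and 3862 in wild-type hearts 2, 7, 9 and N1, 3636 and 5993 in heterozygous hearts 5 and 12, and 3623, 5003, 3903 and 2552 in null hearts 3, 4, 8 and N3. Its groups overlapped, with the highest heart heterozygous and the lowest null. Tead3 gave 1009, 1249.6, 1119 and 929.7 in wild-type hearts, 1105 and 232 in heterozygous hearts, and 1389, 1444, 1205 and 1029 in null hearts, listed in the same order. The 2 highest values were null, and heterozygous heart 12 was the only one below the floor. The null minus wild-type differences were -0.051 ± 0.24 for Tead2 and 0.23 ± 0.16 for Tead3 (SE), with an exact two-sided permutation p of 0.1714 for Tead3. Of 4 tested Hippo pathway genes 3 were higher and 1 lower in null hearts, with 0 called, and those of smallest p were Ccn2, a Yap target (-0.30 ± 0.23, SE), and Wwtr1, which encodes Taz (0.20 ± 0.28, SE).

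The remaining lists gave few probe sets. Only 2 probe sets of the retinoic acid pathway, which acts above Hox genes, were tested, for the receptor Rarg (0.27 ± 0.25, SE) and the binding protein Crabp1 (0.058 ± 0.38, SE) between null and wild type. Of homeodomain cofactors beside Meis and Pbx, Tgif2 was tested with a pair of probe sets, at -0.13 ± 0.15 and 0.0057 ± 0.22 (SE). None was called in a genotype comparison.

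**Figure D3:**
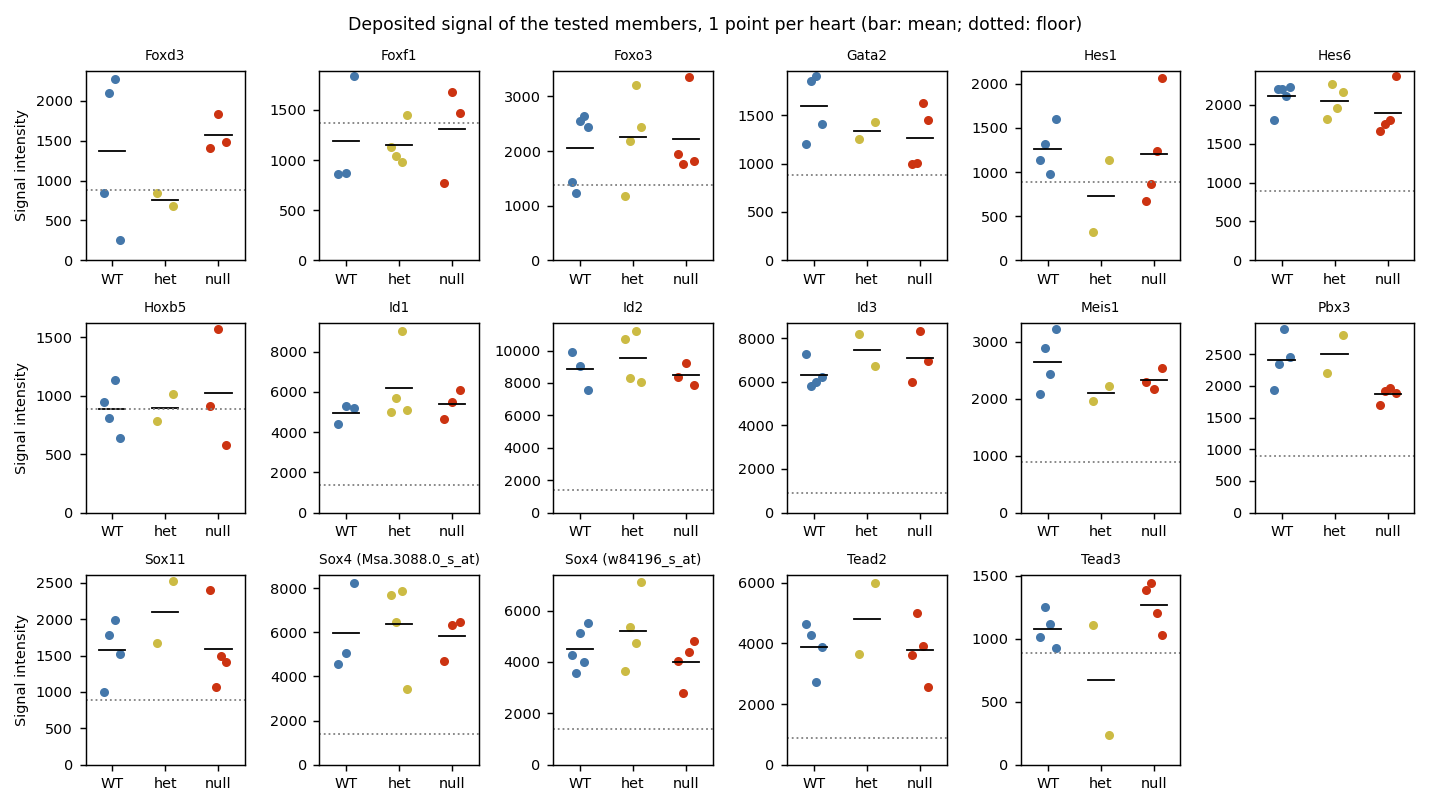
Deposited signal (vertical axis, linear intensity units) of the 17 tested member probe sets, 1 point per heart, in wild-type (WT), heterozygous (het) and null hearts; bars are group means and dotted lines the floor. The Pbx3 null hearts sit between 1706 and 1964, at the low end of the wild-type points, and the Foxd3 wild-type hearts fall on both sides of the floor.

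With the floor lowered to 1 times the noise, 35 member probe sets could be tested and 0 were called in any genotype comparison, with 0.0318%, 0% and 0% of all 6282 probe sets called between null and wild type, heterozygous and wild type, and null and heterozygous. At an unadjusted limma p under 0.05 there were 0, 0 and 2 of the 35, against 2.32%, 3.61% and 5.86% of all. The 18 added were Foxa2, Hes3, Hoxa11, Hoxa13, Hoxc4, Hoxc8, Hoxd12, Meis2, Nkx2-2, Pbx2, Pou2f3, Pou3f2, Pou5f1, Pou6f1 and Tbx2, and further probe sets of Gata2, Hes6 and Id1. Between null and wild-type hearts 7 of them were higher and 11 lower, from -0.76 (Pou5f1) to 0.22 (Pou6f1). In the comparison of null with heterozygous hearts 15 of the 18 were higher and 3 lower. The share of all 6282 probe sets that were higher at this floor was not computed, so this count has no background beside it. Of the 18, those on the A array had values from only 2 heterozygous hearts. At the higher floor the 17 tested members went the other way, 6 higher and 11 lower, and 53.4% of all tested probe sets were higher. The 2 members at an unadjusted limma p under 0.05 were Tead3 and Tbx2. Tead3 was 0.84 ± 0.33 (SE, adjusted p = 0.7789 in limma), and 0.34 at the higher floor. It had values from only 2 heterozygous hearts, and heart 12 (232) was the only heart below either floor. Tbx2 was 0.53 ± 0.24 (SE, adjusted p = 0.8212 in limma). Between null and wild type Tbx2, a repressor of the chamber programme in the atrioventricular canal, differed by 0.10 ± 0.23 (SE) and Meis2 by -0.11 ± 0.24 (SE).

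The hearts were also compared by number, the 7 later-numbered hearts (7 to 12 and N) against hearts 1 to 6, with genotype in the model. This split was taken up with earlier results of these data known, so its p-values are given only as a description. All 3 genotypes occur on both sides, and the labels do not say what the numbers stand for. The labels also do not place the N hearts after the others, so grouping them with hearts 7 to 12 was a choice. Early and later refer here to heart numbers, as all hearts were from embryonic day 12.5. Of the 17 members 1 passed, Foxo3, and 7.14% of all tested probe sets did. At an unadjusted limma p under 0.05 there were 4 members, all higher in later hearts: Foxo3, Gata2, Hes1 and the Sox4 probe set w84196_s_at. Of all tested probe sets 24.7% passed that limit, so the 4 of 17 are near the background. Of the 17, 12 were higher and 5 lower, with a median log2 difference of 0.25, against 0.015 for all tested probe sets.

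Foxo3 gave 1439.6 and 1232 in wild-type, 1182 and 2179 in heterozygous and 1941 and 1755 in null hearts numbered 1 to 6. Among later hearts it gave 2544, 2638 and 2436 in wild-type, 3200.2 and 2444 in heterozygous and 3361 and 1811 in null hearts. In wild-type and heterozygous hearts every later value exceeded every early one, whereas null heart N3 lay among the early hearts. The mean rose from 1621 ± 402 (SD, n = 6) to 2633 ± 518 (SD, n = 7), a log2 difference of 0.67 ± 0.16 (SE, adjusted p = 0.0282 in limma). An exact two-sided permutation test over hearts, without genotype in the model, gave 0.0035. This call was lost without wild-type heart 1, 2 or 7, heterozygous heart 5, or null heart 4 or 8, with differences of 0.59 to 0.68 and adjusted p of 0.0524 to 0.0852.

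Gata2 was the only tested member whose early and later hearts did not overlap, where 6.88% of all tested probe sets did not. Its 4 early hearts ran from 995 to 1256 and its 6 later hearts from 1414 to 1910.0. The log2 difference was 0.48 ± 0.15 (SE) and did not pass (adjusted p = 0.0763 in limma). The second Gata2 probe set, never above the floor, did not show this shift. It gave 0.015 ± 0.14 (SE) with the floor at 1 times the noise. Hes1 was above the floor in 1 of 4 early and 6 of 6 later hearts, with a difference of 0.51 ± 0.20 (SE, adjusted p = 0.1279 in limma). Foxf1 was above it in 0 of 5 early and 4 of 5 later hearts (0.19 ± 0.097, SE). Pbx2, with too few values above the floor to be tested, ran from 544 to 687 in 4 early hearts, all below the floor. In 6 later hearts it ran from 728 to 1189, 3 of them above the floor. Its deposited signals did not overlap, but the gap lay below the floor, and values raised to the floor overlapped. The Tead genes, Id2, Id3 and Hoxb5 were the 5 members lower in later hearts, from -0.19 to -0.081, and none passed.

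Some other gene groups leaned to 1 direction between the heart numbers and others were split, where 7.14% of all tested probe sets were called. Epicardial (3 higher, 2 lower) and skeletal muscle probe sets (2 and 3) were split, each list with 1 called. The same held for BMP and TGF-beta (4 and 3) and bHLH partner probe sets (4 and 5). The skeletal muscle and bHLH partner lists shared their called probe set, that of Myog (-0.88 ± 0.14, SE). Hippo (2 and 2) and leukocyte probe sets (1 and 1) were split with 0 called. Cardiomyocyte markers were lower in later hearts for 13 of 14 probe sets, 3 of them called (median -0.35). Erythroid markers were lower for 5 of 7 (median -0.42), though the 1 called, Alas2 of haem synthesis, was higher (1.29 ± 0.31, SE), and smooth muscle markers were lower for 3 of 3, none called (median -0.35). Fibroblast and valve matrix markers were higher for 8 of 9, 1 called (median 0.20). Endothelial markers were higher for 5 of 8, 2 of them called (median 0.16), and the summed signal of the 3 without blanks was 13036 to 22604 in early and 22255 to 34797 in later hearts. Both Notch2 probe sets (1.20 ± 0.23 and 0.86 ± 0.22, SE) and Notch3 (0.52 ± 0.14, SE) were higher in later hearts, at limma adjusted p-values of 0.0107, 0.0358 and 0.0403. The part of these groups in the Foxo3, Gata2 and Hes1 values was not tested. With heart-number set as a block, 0 members were called in each of the 3 genotype comparisons. The null minus wild-type differences of Pbx3, Gata2, Meis1 and Id3 then became -0.28, -0.20, -0.094 and 0.039.

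**Figure D4:**
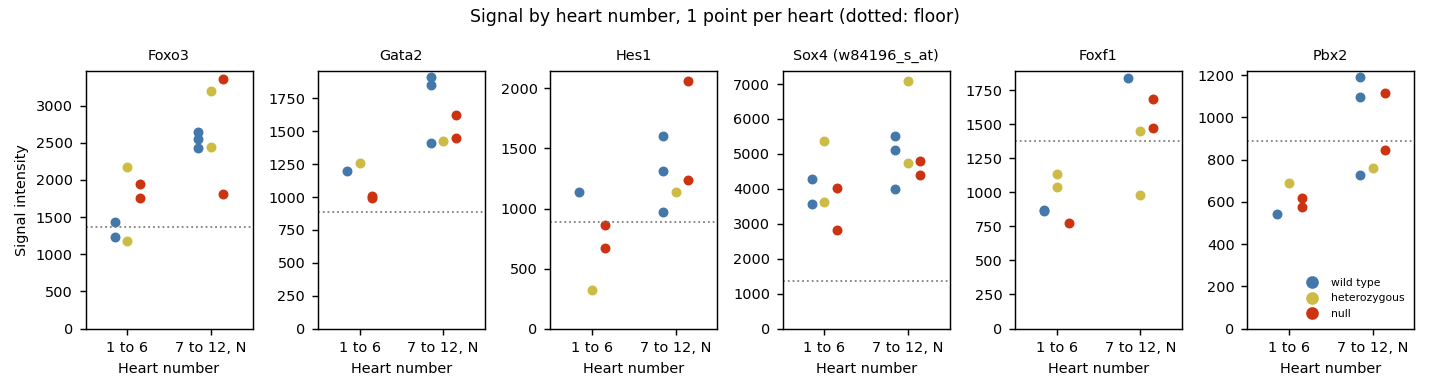
Signal (vertical axis, linear intensity units) of 6 members in hearts numbered 1 to 6 and in later-numbered hearts, 1 point per heart, coloured by genotype; the dotted line is the floor. Gata2 runs from 995 to 1256 in early and from 1414 to 1910.0 in later hearts, and 6 of the 7 later Foxo3 values lie between 2436 and 3361.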

How the data were processed

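The deposited values were linear intensity, 1 value per probe set and array, as scaled by the authors. The array software is not given in the sources used here. Between 10.1% and 29.5% of the values of an array were negative, and blank cells were missing values. Gene names came from the platform annotation (5560 A and 2001 B probe sets with 1 symbol), checked by gene ID against RefSeq GRCm38.p6. Values below 2 times the noise (443.5 on A, 686.4 on B) were raised to that floor and log2 was taken. The genotype contrasts were fitted in limma 3.58.1 (R 4.3.3), 1 fit per table to all 13 hearts with a variance trend, two-sided, with Benjamini-Hochberg adjustment over 4494 probe sets. The 55 control probe sets of each table were left out. The number of arrays limits the precision. The fit was tested on simulated data.

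The members, the lists and the split by heart number were chosen with earlier results of these data known. Full values were given for members past the threshold, for the 4 of smallest p per direction in each genotype comparison, and for members whose null and wild-type hearts did not overlap. Other members were summarised, and the 2 genes of smallest p were named per pathway list. Alternatives were other scalings, floors and filters, heart-number sets as a block, and fits to the 2 genotypes compared. Further alternatives left out partly blank arrays, the N hearts or each heart.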

Additional observations from a re-analysis of the deposited data

Results flagged for a closer look

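In 29 groups of 4 or 5 hearts, 2 tested members had a heart far from the others, where chance gives about 1 group in 20. Foxo3 was 3361 in null heart 8 against 1755 to 1941 in the other null hearts. Hes6 was 1806 in wild-type heart 1 against 2109 to 2224 in the other 4 wild-type hearts. The cause of either was not tested.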

How the results depend on the processing

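The count of members called between genotypes was 0 under all 23 alternatives run for each comparison, and with 17 tested members few calls could be gained or lost. The median member difference ran from -0.080 to 0.039 (null against wild type), -0.079 to 0.11 (heterozygous against wild type) and -0.18 to 0.082 (null against heterozygous). The member called between later and early hearts fell from 1 to 0 under quantile scaling (Foxo3 at 0.63), with the floor at 3 times the noise (0.35), without a filter on low values (0.67), under the stricter filter, which left Foxo3 out, and without the partly blank arrays (those lacking most of their values) (0.68). Leaving out 1 heart gave 0 to 2 calls, the second being Sox11 (0.62) without null heart 3. The cause was not tested. Directions turned for Foxf1 between heterozygous and wild type at 1 times the noise (0.033), and for Foxd3 between null and wild type at 3 times the noise (-0.12) and without the N hearts (-0.0067). Leaving out 1 heart gave -0.048 to 0.41 for Foxd3, -0.093 to 0.32 for Hoxb5 between null and wild type, and -0.076 to 0.34 for Hoxb5 between null and heterozygous. Without heterozygous heart 5 or 12 only 7 members could be tested, since 1 heterozygous value was left for the others. Without a filter, probe sets at the floor on every array were still left out because they have no spread. Signal over background limits the untested members.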
